A study of Saccharomyces cerevisiae with 13 samples.

Results

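The heat shock shift of the nascent to total RNA ratio was measured for 1803 of 4280 yeast transcript models. The shift is the log2 of NRO (HS) over total RNA (HS) minus the log2 of NRO over total RNA, each taken from the read density of the gene. A positive shift means that the nascent RNA of a gene was higher relative to its total RNA after heat shock than in log growth. A negative shift means that the total RNA was higher relative to the nascent RNA. Members had a summed read depth of at least 27 in NRO (HS), 16 in total RNA (HS), 5 in NRO and 12 in total RNA, in units of depth per 1000000 bases acquired. These limits correspond to about 10.2, 10.5, 12.5 and 10.7 reads.

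All samples came from *S. cerevisiae* BY4742, a MATalpha laboratory strain with HIS3, LEU2, LYS2 and URA3 deleted, grown in yeast extract-peptone dextrose medium to exponential phase at 30°. Heat-shocked cultures were held at 39° for 20 min. The 4 groups were NRO (HS), total RNA (HS), NRO and total RNA, with 3 libraries each. For NRO libraries, cells were permeabilized with sarcosyl, nascent RNA was extended with biotin-UTP, and the labelled RNA was caught on streptavidin. Total RNA libraries skipped this selection. According to the methods, log growth RNA came from 3 independent cultures and heat shock RNA from 6, and the total RNA was an aliquot of the labelled sample. The 3 libraries of a group were merged by the authors, so that each gene has 1 value per group and no replicate spread. Intervals below are exact conditional 95% intervals on estimated reads and cover counting error only. No test of a group difference was possible, and a gene or list is called past 2-fold when its log2 shift is at least 1 or at most -1.

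A nuclear run-on lets polymerases that are already engaged on a gene extend their RNA under label, so NRO read density follows how many polymerases were transcribing. Total RNA holds both new and old transcripts. At steady state the level of an mRNA is set by its synthesis and its decay, and the NRO to total RNA ratio is therefore read as a measure of apparent instability. A long-lived mRNA needs time to reach a new level after transcription changes, so the ratio shortly after a shock reflects both the decay of the old RNA and how recently transcription changed. In yeast, heat shock is known for a strong induction of chaperone, trehalose and stress genes and for repression of ribosomal protein and ribosome biogenesis genes.

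The heat shock libraries were shallower, with 378273 estimated reads in NRO (HS) and 656630 in total RNA (HS) against 2491144 in NRO and 894262 in total RNA. Of the 2477 models that were not members, 1135 were under all 4 limits and 281 were under the NRO (HS) limit alone. Genes with little nascent RNA after heat shock were therefore left out. The limits differ in the same unit, 27 in NRO (HS) against 5 in NRO. A gene with a depth between 5 and 27 in NRO was thus a member only if its NRO was higher after heat shock. Total RNA between 12 and 16 in growth likewise had to be higher. Membership therefore favours positive NRO changes among genes with low NRO in growth. The member closest above the NRO (HS) limit was TUM1 at 28.3 and the model closest below it was FLR1 at 26.4. The same pairs were RIM2 at 16.8 and YIA6 at 16.0 in total RNA (HS), TRX3 at 5.22 and GOR1 at 4.82 in NRO, and MAG2 at 12.3 and PEX8 at 11.8 in total RNA. The a-specific mating genes MFA1, MFA2, BAR1 and AGA2 and the deleted gene LYS2 were at 0 in all 4 libraries, while STE6 had between 3 and 8 reads in each.

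Introns are a mark of nascent RNA, since they are removed early. Over 152 models with mappable introns, the intron read density was 11.9% of that of the exons in NRO (HS) and 8.46% in total RNA (HS), against 22.7% in NRO and 9.02% in total RNA. The bead-selected library thus held a smaller share of intron reads relative to its total RNA after heat shock than in growth. Over the 1803 members, log2 NRO (HS) and log2 total RNA (HS) were also closer to each other (Pearson r = 0.895 across genes) than log2 NRO and log2 total RNA were (r = 0.835). The SD of the log2 ratio over genes was 0.87 after heat shock and 1.05 in growth. These libraries share no reads, but genes are not independent replicates. The part of the weaker nascent mark in the shifts below was not tested.

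The shift had a median of 0.22 over all members, with a lowest decile of -0.91, a highest decile of 1.36 and a range of -3.21 to 3.40. The median log2 change was -0.00 for NRO and -0.25 for total RNA. Densities are shares of a library, so a change that all genes had in common cannot be seen. A total of 343 genes, 19% of the members, had an NRO to total RNA ratio at least 2-fold higher after heat shock, and 151 genes, 8.37%, had one at least 2-fold lower. In 315 of the 343 (17.5% of the members) and 143 of the 151 (7.93%) the counting interval also left out 0. The 1150 members in none of the gene lists below had a median of 0.18, with 202 higher and 94 lower. After centring on the median of all members these counts were 235 genes higher, or 13%, and 240 lower, or 13.3%. Such centring brings the 2 counts close to each other by construction.

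The calls were made up of several combinations of nascent and total RNA changes. Of the 343 genes with a higher ratio, 221 had NRO and total RNA changes of opposite sign, as 603 of all 1803 members did. A large difference between the 2 changes favours opposite signs by construction. In 121 of the 343 the total RNA was at least 2-fold lower while NRO stayed within 2-fold, and in 97 NRO was at least 2-fold higher while total RNA stayed within 2-fold. Of the 151 genes with a lower ratio, 80 had changes of opposite sign. In 65 of these 151 NRO was at least 2-fold lower with total RNA within 2-fold, and in 33 total RNA was at least 2-fold higher with NRO within 2-fold. Fewer reads gave more calls. Among 390 members with under 20 reads in their lowest library, 24.6% passed 2-fold upward and 14.4% downward, against 15.1% and 4.94% of the 405 members with at least 100.

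**Figure D1:**
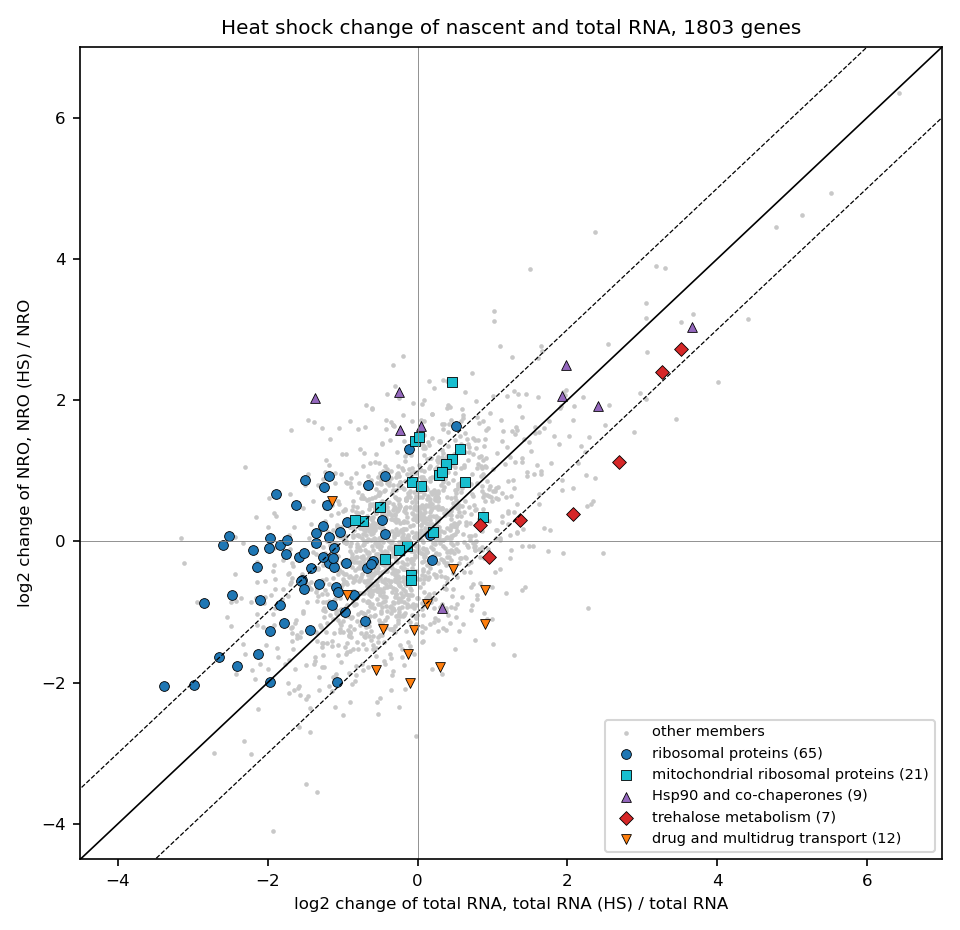
Each point is 1 of the 1803 members, with the log2 change of total RNA (heat shock over growth) on the x axis and the log2 change of NRO on the y axis. The solid line marks a shift of 0 and the dashed lines a shift of 1 and -1. The 65 ribosomal protein genes lie mostly to the left of the solid line, the 12 drug transport genes mostly below it, and all 7 trehalose genes below it.

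Ribosomal protein genes had a high median shift that was smaller once gene length was taken into account. Of 125 models of cytosolic ribosomal proteins, 65 were members, and their median shift was 1.03. The ratio was at least 2-fold higher in 35 of the 65 (53.8%, against 19% of all members) and at least 2-fold lower in 0 (against 8.37%), with a counting interval above 0 in all 35. Of the 65 genes, 62 were in the shortest of 4 classes of region length. Set against the median of their own length class, a comparison added after the values were seen, their median was 0.49. By that measure 17 were at least 2-fold higher (26.2%, against 12.3% of all members) and 2 lower (3.08%, against 11.9%). Without regard to length the 2 subunits had the highest medians of the 39 gene lists with at least 3 members. Against the length classes the aminoacyl-tRNA synthetases, at 0.76, were above the large subunit at 0.64 and the small subunit at 0.48. Total RNA of the ribosomal protein genes had a median log2 change of -1.35 and was at least 2-fold lower in 49 of the 65, against a background of 16.9% of all members. Their NRO had a median log2 change of -0.27 and was at least 2-fold lower in 12 of the 65, where the background was 14%. Their median log2 ratio was 0.27 after heat shock and -0.80 in growth, and a low growth ratio favours a positive shift by construction. The paper had found structural constituents of the ribosome enriched among the genes with the lowest such ratio in growth. The small and large subunits gave nearly the same median shift, 1.04 over 22 genes and 1.03 over 43. Genes with an intron had a median of 1.02 (44 genes) and those without one 1.16 (21 genes). The 59 genes with at least 90% mappable bases, in which reads can be told from those of a paralog, had a median of 1.03, with 31 past 2-fold. Of the 60 models that were not members, 57 were under the NRO (HS) limit and 50 under the total RNA (HS) limit.

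RPS0B (YLR048W, sacCer2 chrXII:242233-243567), a small subunit protein, had the highest shift of that subunit. Its read density was 0.200 in NRO (HS), 0.323 in total RNA (HS), 0.191 in NRO and 1.85 in total RNA. Only the total RNA value in growth stands apart from the others. The shift was 2.59 (counting interval 2.16 to 3.01), from an NRO change of 0.07 and a total RNA change of -2.52. RPL31A (YDL075W), a large subunit protein, had densities of 0.350, 0.0601, 0.221 and 0.223 in the same order of libraries and a shift of 2.56 (1.57 to 3.63). Among deeply read genes the shifts were spread on both sides of 2-fold. RPS2 had densities of 1.17 in NRO (HS), 1.72 in total RNA (HS), 1.99 in NRO and 3.09 in total RNA. Its NRO and total RNA were lower by similar amounts, -0.76 and -0.85, and its shift was 0.08 (-0.12 to 0.28). RPL3 likewise had changes of -0.90 and -1.14 and a shift of 0.24 (0.04 to 0.44). The P-stalk gene RPP1A, with densities of 1.73, 4.88, 0.996 and 7.75 in the same order, had a shift of 1.46 (1.18 to 1.74), and the large subunit gene RPL15A one of 1.35 (1.14 to 1.56). Over the 32 ribosomal protein genes with at least 100 reads in each library, a limit set after the values were seen, the median was 1.01. The interval lay wholly above a 2-fold higher ratio in 11 of them and wholly below it in 8, and held it in 13. By the value alone, 16 of the 32 were at least 2-fold higher, against 15.1% of all 405 members with such depth.

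**Figure D2:**
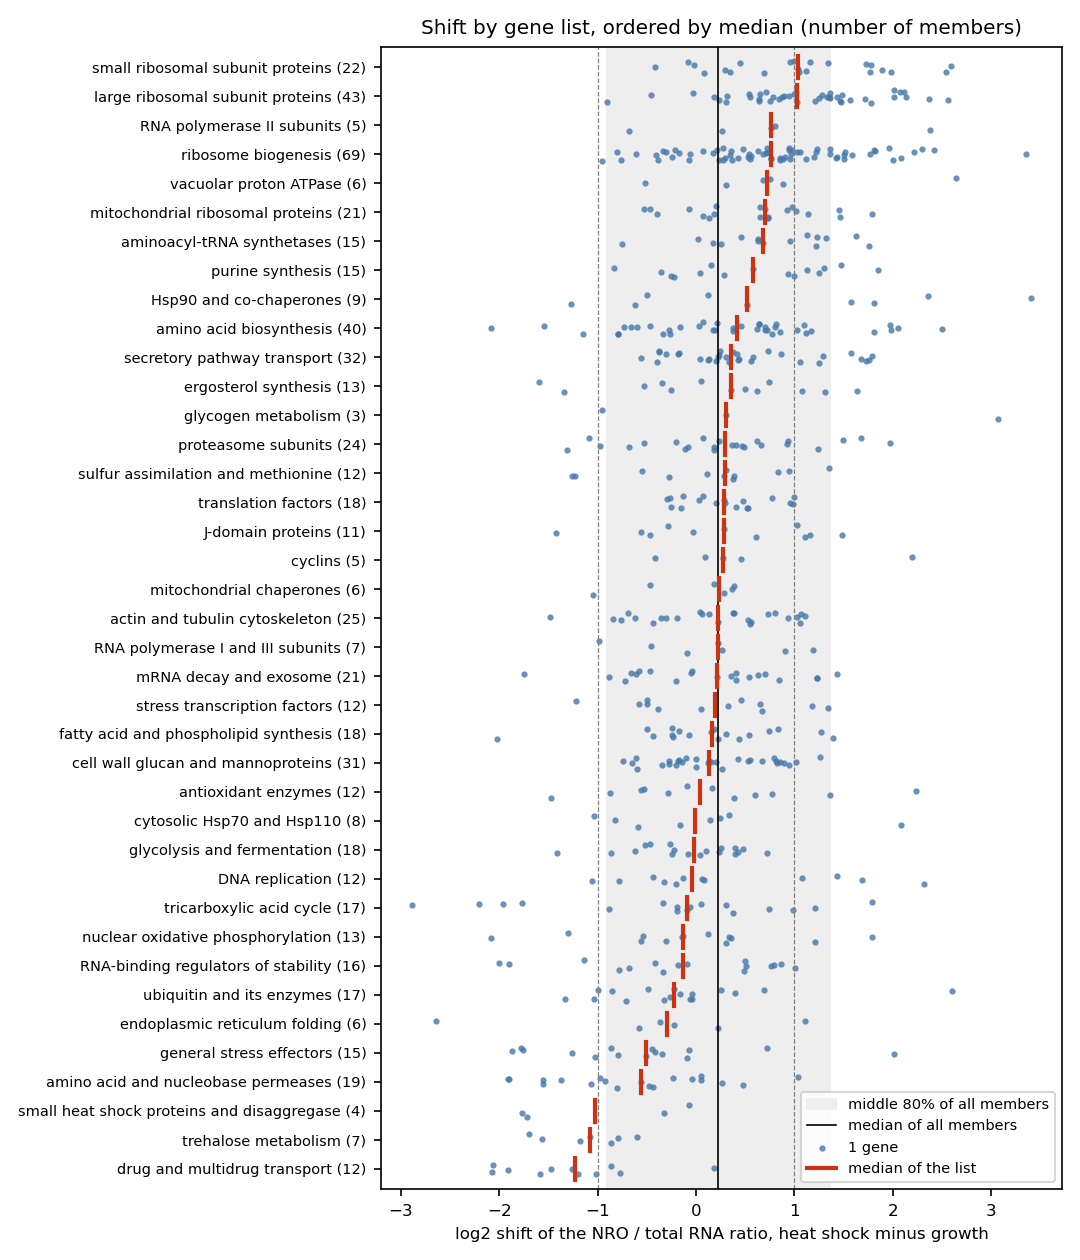
Each point is the log2 shift of 1 gene, with the 39 lists of at least 3 members ordered by their median, which the red bar marks. The grey band runs from the lowest to the highest decile of all 1803 members, the black line is their median of 0.22 and the dashed lines mark 2-fold. The 2 subunits of the cytosolic ribosome have the highest medians (1.04 and 1.03), and drug and multidrug transport has the lowest (-1.23).

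Ribosome biogenesis genes, which encode the factors that process ribosomal RNA and assemble subunits in the nucleolus, shifted in the same direction. Of 140 models, 69 were members. Their median shift was 0.76, with 24 at least 2-fold higher (34.8%, against 19% of all members) and 0 at least 2-fold lower (against 8.37%). Total RNA was at least 2-fold lower in 32 of the 69, where the background was 16.9%, and NRO in 13, where it was 14%, with median log2 changes of -0.91 and -0.29. The ratio had a median log2 of 0.61 after heat shock and -0.34 in growth. REA1 (YLR106C, chrXII:348856-363668), the large AAA-type ATPase that drives maturation of the 60S precursor, had the most reads of the list. It had 390 reads in NRO (HS), 313 in total RNA (HS), 4613 in NRO and 2294 in total RNA. Its density was 0.0696, 0.0322, 0.125 and 0.173 in these libraries. Both kinds of RNA were lower after heat shock, total RNA by more, and the shift was 1.58 (1.35 to 1.81). In EBP2 (YKL172W, chrXI:125949-127148), needed for 27S pre-rRNA processing, the density was 0.316 in NRO (HS), 0.197 in total RNA (HS), 0.163 in NRO and 0.545 in total RNA. Nascent and total RNA moved in opposite directions here, by 0.95 and -1.47, and the shift was 2.42 (2.03 to 2.80). ENP2, a nucleolar protein of the small subunit processome, had the highest shift of the list at 3.35 (2.32 to 4.43), on 15 reads in total RNA (HS). LCP5 had the lowest, at -0.96 (-1.74 to -0.21).

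In aminoacyl-tRNA synthetase genes the change of total RNA lay below that of NRO in 14 of 15 members, against 59.7% of all members. All 15 members had lower total RNA after heat shock, with a median of -1.35, while NRO had a median of -0.67. Of all members, 37.2% had higher total RNA. The median shift was 0.68, with 6 genes at least 2-fold higher and 0 lower, against 19% and 8.37% of all members. The shift was 1.75 (0.62 to 2.93) for HTS1, the histidyl-tRNA synthetase, and -0.75 (-1.29 to -0.22) for KRS1, the lysyl-tRNA synthetase, which was the only member below 0. Purine synthesis genes had a median shift of 0.58 over 15 members, with 5 higher and 0 lower past 2-fold, or 33.3% and 0% beside the same backgrounds. ADK1, adenylate kinase, was highest at 1.85 (1.09 to 2.60) and ADE3 lowest at -0.83 (-0.98 to -0.68). Among translation factors none of 18 members passed 2-fold, against 19% of all members upward and 8.37% downward, and the median was 0.29. YEF3 (YLR249W), the fungal translation elongation factor 3, had densities of 0.908 in NRO (HS), 1.06 in total RNA (HS), 2.40 in NRO and 2.34 in total RNA. Both kinds of RNA were lower by more than 2-fold and the shift was -0.27 (-0.38 to -0.15). None of these lists was tested against another.

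Mitochondrial ribosomal protein genes had a higher nascent RNA at a level total RNA in the median, with a share of 2-fold shifts close to that of all members. Most of these genes carry a site of the form TGTANATA, which the RNA-binding protein Puf3 is known to bind in the mRNAs of mitochondrial ribosomal proteins. The motif was searched on the sense strand in the 200 bases after the stop codon in the RefSeq R64 assembly, where N is any base. It was present in 14.0% of 6027 coding genes, in 14.1% of the 1803 members, in 97.3% of the 75 listed mitochondrial ribosomal protein genes and in all 21 of those that were members. All such sites of the 3 members with the highest shift and of the member with the lowest are given, with the motif in capitals:
MNP1 (chrVII:375739-375768, plus strand, motif starting 79 bases after the stop codon): ggaatatatcaTGTAAATAtgtttaactct
MRPS9 (chrII:536224-536253, plus strand, 139 bases after the stop codon): ttcgttattccTGTAAATAaagttatatgt
MRPL8 (chrX:315714-315743, minus strand, 27 bases after the stop codon): gtgtattccctTGTAAATAtatagatgaca
MRPL28 (chrIV:1386537-1386566, plus strand, 32 bases after the stop codon): ctgtctcctgcTGTAAATAactgatgatca
MRPL28, second site (chrIV:1386593-1386622, plus strand, 88 bases after the stop codon): atataattataTGTACATAgacatataaag

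All 4 genes carried the form TGTAAATA, and MRPL28, with the lowest shift, also carried TGTACATA. Over the 21 members the median shift was 0.71, against 0.22 for all members. The ratio was at least 2-fold higher in 5 (23.8%, close to the 19% of all members) and at least 2-fold lower in 0 (against 8.37%). Median log2 changes were 0.78 for NRO and 0.02 for total RNA. No member had a 2-fold change of total RNA, where 8.15% of all members were at least 2-fold higher and 16.9% lower. NRO was at least 2-fold higher in 6 (28.6%, against 14.5% of all members). Of 69 models, 48 were not members, 32 of them under all 4 limits, so the list was poorly covered. MNP1 (YGL068W), a large subunit protein, had densities of 0.268 in NRO (HS), 0.149 in total RNA (HS), 0.0562 in NRO and 0.108 in total RNA. Its nascent RNA was higher by 2.25 and its total RNA by 0.46, and the shift was 1.79 (1.02 to 2.60). MRPS12, with the most reads, had a shift of 0.65 (0.19 to 1.11). MRPL28 had a shift of -0.52 (-1.67 to 0.57). Outside this list, 234 members with the motif had a median shift of 0.22 and those without it 0.21.

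Hsp90 and its co-chaperones were divided. Hsp90 matures kinases and other client proteins together with co-chaperones, and most of these genes are heat-induced. NRO was at least 2-fold higher in 8 of 9 members, against 14.5% of all members, with a median log2 change of 2.04, but total RNA was at least 2-fold higher in 4, where the background of all members was 8.15%. SBA1 (YKL117W, chrXI:220143-220769), the yeast p23 co-chaperone, had a density of 1.88 in NRO (HS), 1.93 in total RNA (HS), 0.435 in NRO and 2.29 in total RNA. Nascent RNA was 4.33-fold higher while total RNA was 0.843 of its growth level, giving a shift of 2.36 (2.14 to 2.58). HSC82, the constitutive Hsp90, showed the same with densities of 0.184, 0.172, 0.0620 and 0.202 and a shift of 1.80 (1.41 to 2.19). The inducible HSP82 had densities of 0.283, 0.778, 0.0345 and 0.0614. Its total RNA was higher by 3.66 and its NRO by 3.04, and the shift was -0.63 (-1.05 to -0.22). The intervals of these 2 Hsp90 genes did not overlap. PPT1, a phosphatase that acts on Hsp90, had the highest shift of all members, 3.40 (2.29 to 4.53), on 19 reads in NRO (HS). Its NRO depth in growth lay under the NRO (HS) limit of 27, so membership required a higher NRO after heat shock. CDC37, a kinase co-chaperone, was lowest at -1.28 (-2.24 to -0.38). In growth this list had the lowest ratio of those named here, a median log2 of -1.71, against -0.66 after heat shock. A low growth ratio favours a positive shift by construction.

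**Figure D3:**
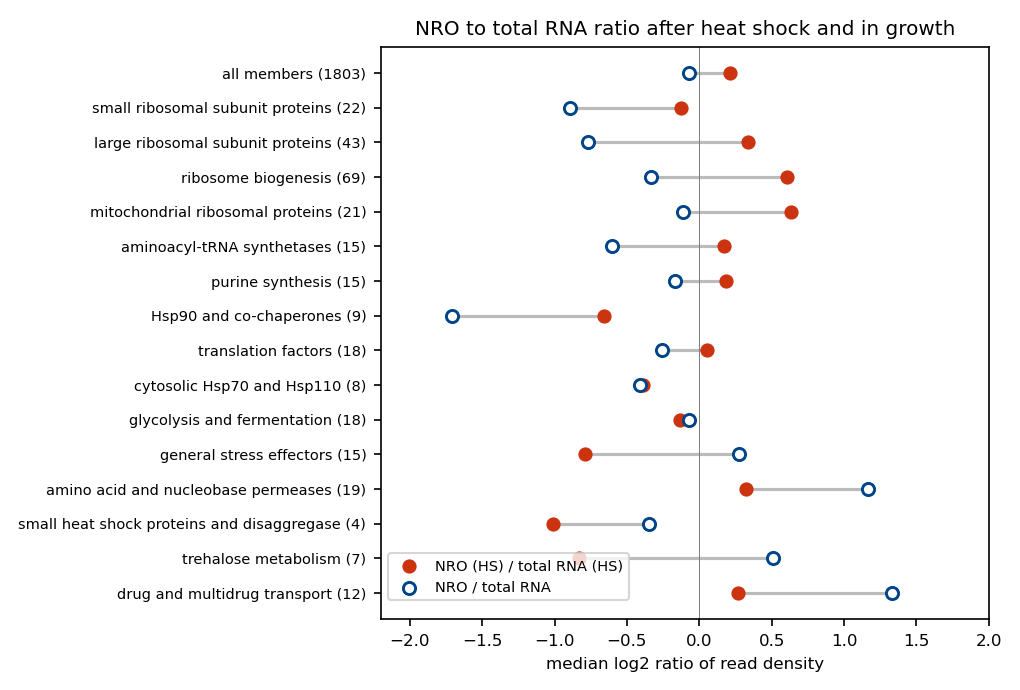
Filled points give the median log2 of NRO (HS) over total RNA (HS) and open points the median log2 of NRO over total RNA for 15 gene lists and for all 1803 members, with the number of members in parentheses. The median of ribosome biogenesis is 0.61 after heat shock and -0.34 in growth, and that of drug and multidrug transport is 0.26 after heat shock and 1.33 in growth.

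HSP12 and the Hsp70 gene SSA1 were induced about equally in nascent and total RNA. HSP12, a small membrane-associated heat shock protein, had densities of 4.57 in NRO (HS), 9.37 in total RNA (HS), 0.0562 in NRO and 0.109 in total RNA. Nascent RNA was 81.4-fold and total RNA 85.7-fold higher, and the shift was -0.07 (-0.75 to 0.62). Among cytosolic Hsp70 genes, SSA1 had changes of 3.37 in NRO and 3.04 in total RNA and a shift of 0.33 (0.17 to 0.49), with only 48.8% of its bases mappable. SSA4 had changes of 4.93 and 5.52 and a shift of -0.59 (-1.06 to -0.13). SSB2, the ribosome-associated Hsp70, stood apart from these. Its densities were 0.144 in NRO (HS), 0.0474 in total RNA (HS), 0.262 in NRO and 0.366 in total RNA. The shift was 2.09 (1.43 to 2.75). SSB2 has a near-identical paralog, SSB1, which was not a member, and 63.2% of its bases were mappable, so that the value is uncertain.

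HSP104 and HSP42 gained more total RNA than nascent RNA. HSP104 (YLL026W, chrXII:88782-91440), the disaggregase, had densities of 0.0915 in NRO (HS), 0.162 in total RNA (HS), 0.0614 in NRO and 0.0320 in total RNA. Total RNA was 5.07-fold and nascent RNA 1.49-fold higher, and the shift was -1.77 (-2.28 to -1.26). HSP42, a small heat shock protein, had changes of 1.73 in NRO and 3.45 in total RNA and a shift of -1.72 (-2.22 to -1.24). HSP26 had changes of 4.46 and 4.78 and a shift of -0.33 (-1.44 to 0.68). In all 4 members of the small heat shock protein and disaggregase list the shift was below 0, in 2 past 2-fold, against 8.37% of all members, and the range was -1.77 to -0.07. Among all members 59.7% had a shift above 0. The intervals of HSP26 and HSP12 held 0. Other heat-induced genes had positive shifts, such as 0.52 (0.09 to 0.95) in CPR6, an Hsp90 co-chaperone, and 0.72 (0.09 to 1.35) in GAD1, the glutamate decarboxylase. In GAD1, HSP26 and HSP12 the NRO depth in growth lay under the NRO (HS) limit. Membership of these genes required a higher NRO after heat shock, which favours a positive shift.

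Trehalose genes shifted negatively throughout. Trehalose is a disaccharide that accumulates in heat-stressed yeast. All 7 members had a shift below 0, 4 of them at least 2-fold, against 8.37% of all members, and all 7 had higher total RNA after heat shock. Among all members 59.7% had a shift above 0 and 37.2% had higher total RNA. The median shift was -1.07, from median changes of 0.38 in NRO and 2.08 in total RNA. TPS1 (YBR126C, chrII:488793-490245), the trehalose-6-phosphate synthase, had densities of 1.16 in NRO (HS), 2.06 in total RNA (HS), 0.534 in NRO and 0.320 in total RNA. Total RNA was lower than NRO in growth and higher than NRO after heat shock. The shift was -1.57 (-1.77 to -1.36). UGP1, which makes the UDP-glucose that the synthase uses, was lowest at -1.70 (-2.21 to -1.19), with densities of 0.0977, 0.450, 0.0751 and 0.107. The regulatory subunit TSL1 had changes of 2.40 and 3.26 and a shift of -0.86 (-1.09 to -0.64). The trehalases NTH1 and NTH2, which degrade the sugar, had shifts of -1.07 (-1.50 to -0.65) and -1.18 (-2.27 to -0.10), so synthesis and degradation enzymes did not differ in direction. The other regulatory subunit, TPS3, had the highest value at -0.60 (-1.11 to -0.09). TPS2 and ATH1 were not members, both under the NRO (HS) limit alone.

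General stress effectors, most of them targets of the Msn2 and Msn4 activators, had a median shift of -0.51 over 15 members, with 5 at least 2-fold lower (33.3%, against 8.37% of all members) and 1 at least 2-fold higher (6.67%, against 19%). Total RNA was at least 2-fold higher in all 15, where the background was 8.15%, and NRO in 13, where it was 14.5%. In HSP12, PGM2 and GAD1, at least, the NRO depth in growth lay under the NRO (HS) limit. Membership of these genes required a higher NRO after heat shock, so the count for NRO is partly set by the limits. GPD1 (YDL022W), the glycerol-3-phosphate dehydrogenase of osmotic stress, had densities of 0.367 in NRO (HS), 0.561 in total RNA (HS), 0.403 in NRO and 0.169 in total RNA. Its total RNA was 3.33-fold higher at nearly level nascent RNA, and the shift was -1.87 (-2.22 to -1.51). PNC1 (YGL037C), the nicotinamidase, had densities of 1.58, 2.87, 1.09 and 0.579 and a shift of -1.78 (-2.02 to -1.53). TFS1, an inhibitor of carboxypeptidase Y, had changes of 3.15 and 4.41 and a shift of -1.26 (-1.72 to -0.82). OM45, a protein of the outer mitochondrial membrane, went the other way. Its densities were 1.72 in NRO (HS), 1.07 in total RNA (HS), 0.0825 in NRO and 0.207 in total RNA, so that nascent RNA was 20.9-fold and total RNA 5.18-fold higher. The shift was 2.01 (1.71 to 2.32). Of 28 models in this list 13 were not members, with 11 under the NRO (HS) limit and 11 under the total RNA limit of growth, some under both.

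**Figure D4:**
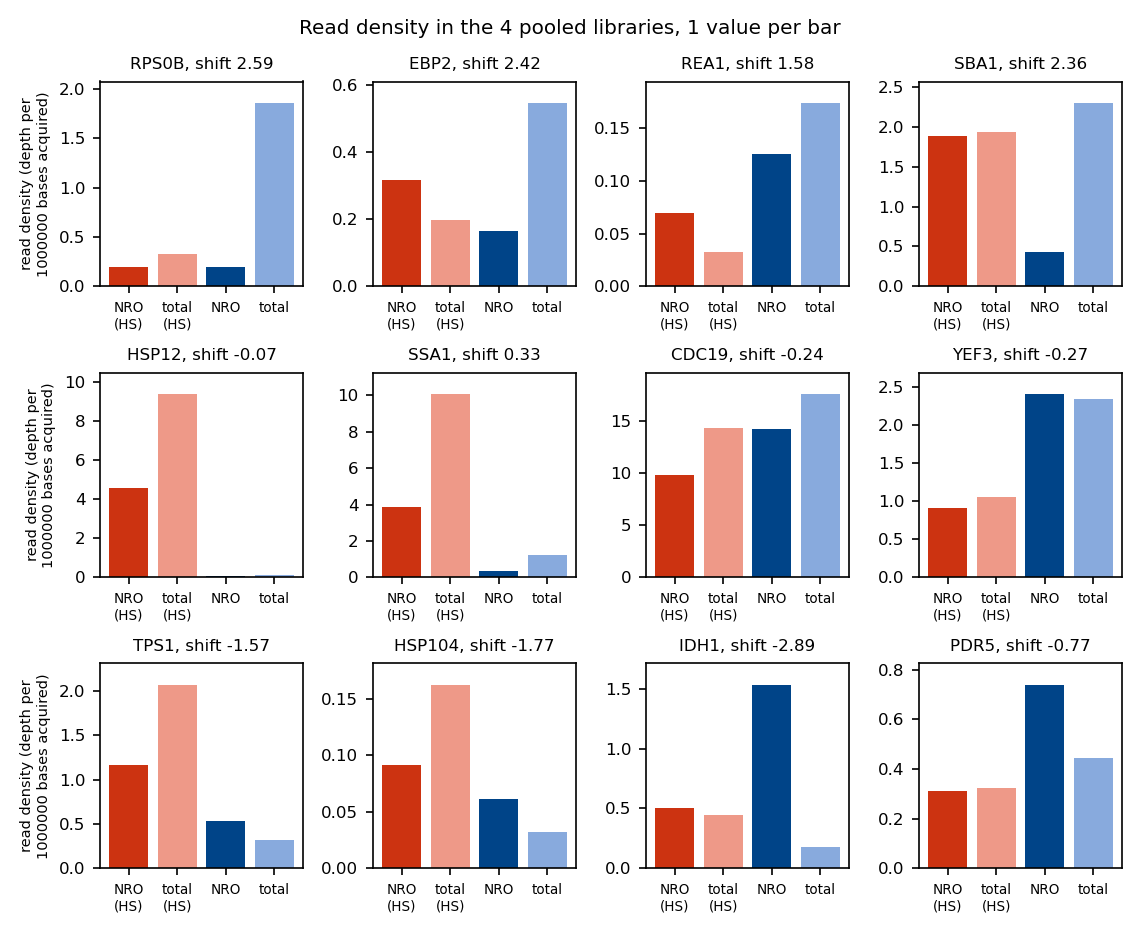
Bars give the read density, in depth per 1000000 bases acquired, of 12 genes in NRO (HS), total RNA (HS), NRO and total RNA, 1 pooled value per bar and no error bar because no replicate values exist; each panel has its own scale starting at 0. In RPS0B the growth total RNA alone is high, in SBA1 the growth NRO alone is low, in HSP12 and SSA1 both heat shock values are high, and in IDH1 the growth NRO alone is high.

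Drug and multidrug transport genes had lower nascent RNA, while their total RNA was nearly level in the median. Of 12 members of this list, 8 had a ratio at least 2-fold lower (66.7%, against 8.37% of all members) and 1 had one at least 2-fold higher (8.33%, against 19%). The median shift was -1.23, the lowest of the 39 lists. The paper had found drug transport enriched among the genes with the greatest nascent to total RNA ratio in growth. The list had a median log2 growth ratio of 1.33, and a high growth ratio favours a negative shift by construction. NRO was below its growth level in 11 of 12 and at least 2-fold lower in 7, against 14% of all members, with a median change of -1.20, while total RNA had a median change of -0.07. Among all members 49.9% had NRO above its growth level. SNQ2 (YDR011W, chrIV:465799-470585), an ABC transporter, had densities of 0.0293 in NRO (HS), 0.0398 in total RNA (HS), 0.100 in NRO and 0.0325 in total RNA. Its shift was -2.07 (-2.63 to -1.52). The polyamine exporters TPO1, TPO2 and TPO3 had shifts of -1.20 (-1.70 to -0.70), -2.06 (-3.03 to -1.14) and -1.26 (-1.91 to -0.61). TPO2 and TPO3 are near-identical over part of their length, with 71.0% and 73.4% of their bases mappable, so that their values are less certain. PDR12, the exporter of weak acids, had one of -1.91 (-2.78 to -1.04). PDR5 (YOR153W), the ABC exporter with the most reads, had 542, 971, 8411 and 1828 reads in NRO (HS), total RNA (HS), NRO and total RNA. Its nascent RNA was lower by more than its total RNA, -1.24 against -0.47, and the shift was -0.77 (-0.94 to -0.60). ATR1, 1 of 2 members with a shift above 0, was the only one at least 2-fold higher. Its shift was 1.71 (0.40 to 3.09) on 11 reads in total RNA (HS). FLR1, AQR1 and YOR1 were not members.

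Amino acid and nucleobase permeases had a median shift of -0.56 over 19 members, with 6 at least 2-fold lower (31.6%, against 8.37% of all members) and 1 higher (5.26%, against 19%). Median changes were -0.73 in NRO and -0.04 in total RNA, but total RNA ranged from -1.71 to 1.57. NRO was higher in 5 of the 19, against 49.9% of all members. TAT1, the tyrosine and tryptophan permease with the most reads, had both lower, by -2.36 in NRO and -1.43 in total RNA, and a shift of -0.92 (-1.52 to -0.30). PTR2, the di- and tripeptide permease, was lowest at -1.91 (-3.01 to -0.88), followed by the lysine permease LYP1 at -1.90 (-2.45 to -1.35). LYP1 had densities of 0.100 in NRO (HS), 0.0954 in total RNA (HS), 0.203 in NRO and 0.0518 in total RNA. The branched-chain permease BAP2 was highest, at 1.04 (0.50 to 1.59). In growth both transporter lists had a high ratio, with median log2 values of 1.33 and 1.17, and after heat shock these were 0.26 and 0.32. The growth ratio is a term of the shift, so genes with a high growth ratio tend to lower shifts by construction. Genes and lists with a low one tend to higher shifts in the same way. Examples are the ribosomal proteins, with a median of -0.80, and the Hsp90 list, with one of -1.71. The part of this dependence in the values was not tested.

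Tricarboxylic acid cycle genes had no common direction but held the member with the most firmly counted negative shift. The median over 17 members was -0.09, with 2 higher past 2-fold (11.8%, below the 19% of all members) and 4 lower (23.5%, above the 8.37%). IDH1 (YNL037C, chrXIV:557822-558917), a subunit of the mitochondrial NAD-dependent isocitrate dehydrogenase, had densities of 0.502 in NRO (HS), 0.443 in total RNA (HS), 1.53 in NRO and 0.182 in total RNA. Its nascent RNA was 0.329 and its total RNA 2.44 times the growth level, so that they moved in opposite directions. The shift was -2.89 (-3.23 to -2.55). Aconitase, ACO1, had densities of 0.120, 0.125, 0.444 and 0.0997 and a shift of -2.21 (-2.61 to -1.80). The glyoxylate and gluconeogenic isoforms CIT2 and MDH2 had shifts of -1.77 (-2.50 to -1.06) and -1.96 (-2.65 to -1.28). The succinate dehydrogenase subunits SDH2 and SDH4 were on the other side, at 1.79 (0.54 to 3.07) and 1.21 (0.56 to 1.88). Glycolytic and fermentation genes had a median close to 0, at -0.02 over 18 members. None was at least 2-fold higher, against 19% of all members. Only 1, ENO1, was at least 2-fold lower (5.56%, near the 8.37% of all members). The pyruvate kinase CDC19 had 5558, 14042, 53091 and 23490 reads in NRO (HS), total RNA (HS), NRO and total RNA, and a shift of -0.24 (-0.29 to -0.19). FBA1, aldolase, had the highest at 0.73 (0.64 to 0.81).

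The 10 members with the highest lower limit of the interval came from several pathways. Besides RPS0B, SBA1, EBP2, ENP2 and PPT1, they were VTC4, ASF1, RTN1, INM2 and CNB1. VTC4 (YJL012C, chrX:411180-413225), the polyphosphate polymerase of the vacuole, had densities of 0.0904 in NRO (HS), 0.0413 in total RNA (HS), 0.0304 in NRO and 0.133 in total RNA, and a shift of 3.26 (2.64 to 3.87). ASF1 (YJL115W), a histone chaperone, had densities of 0.457, 0.448, 0.149 and 1.08 and a shift of 2.88 (2.51 to 3.26). Nascent RNA was 2.97-fold higher in VTC4 and 3.06-fold higher in ASF1, while total RNA was 0.310 and 0.414 of its growth level. RTN1, a reticulon that shapes the endoplasmic reticulum, had level nascent RNA (change 0.05) and a total RNA change of -3.16, and its shift was 3.21 (2.19 to 4.35) on 11 reads in total RNA (HS). INM2, an inositol monophosphatase, and CNB1, the regulatory subunit of calcineurin, had shifts of 2.83 (1.88 to 3.77) and 3.19 (1.87 to 4.52). As in PPT1, their NRO depth in growth lay under the NRO (HS) limit of 27, so membership required a higher NRO.

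The 10 members with the lowest upper limit were IDH1, ACO1, SNQ2, PNC1, GPD1, YOR338W, ERO1, STP4, EAR1 and TMC1. ERO1 (YML130C), the thiol oxidase of the endoplasmic reticulum, had densities of 0.0584 in NRO (HS), 0.0878 in total RNA (HS), 0.0655 in NRO and 0.0158 in total RNA. Its total RNA was 5.57-fold higher at a nascent level of 0.891, and its shift was -2.64 (-3.53 to -1.76). YOR338W had a shift of -3.21 (-4.44 to -2.01), the lowest of all members, on 11 reads of total RNA in growth. Its total RNA depth in growth lay under the total RNA (HS) limit. Membership of YOR338W therefore required a higher total RNA after heat shock, which favours a negative shift. STP4 and EAR1 reached shifts of -2.09 (-2.50 to -1.67) and -2.74 (-4.00 to -1.52) through nascent RNA, which changed by -2.35 and -2.76 while total RNA changed by -0.25 and -0.02. TMC1 had a shift of -2.11 (-2.71 to -1.51) with a total RNA change of 1.94.

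Shift and gene length went together. With the members cut into 4 classes of equal size by the number of bases counted per region, the median shift was 0.55 for 118 to 896 bases, 0.39 for 898 to 1435, 0.04 for 1439 to 2218 and -0.13 for 2220 to 14813. The ratio was at least 2-fold higher in 30.4%, 23.1%, 13.3% and 9.31% of the genes in these classes. Among the members, the nascent RNA carried most of the trend. Its median log2 change was 0.24, 0.25, -0.08 and -0.51 from the shortest to the longest class, while that of total RNA was -0.22, -0.17, -0.18 and -0.37. Without the ribosomal protein and ribosome biogenesis lists, the median shift was 0.43, 0.38, 0.01 and -0.15. Base composition moved less, with median shifts of 0.14, 0.13, 0.18 and 0.39 over 4 classes of rising GC content. The limits of membership apply to summed depth, which at a given density is lower in a short region. A short region can thus more easily have a growth NRO depth between the NRO limit and the NRO (HS) limit. Membership there required a higher NRO after heat shock, which favours higher NRO changes in such regions. The part of the limits in the trend, and what else differs with length in these libraries, was not tested.

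**Figure D5:**
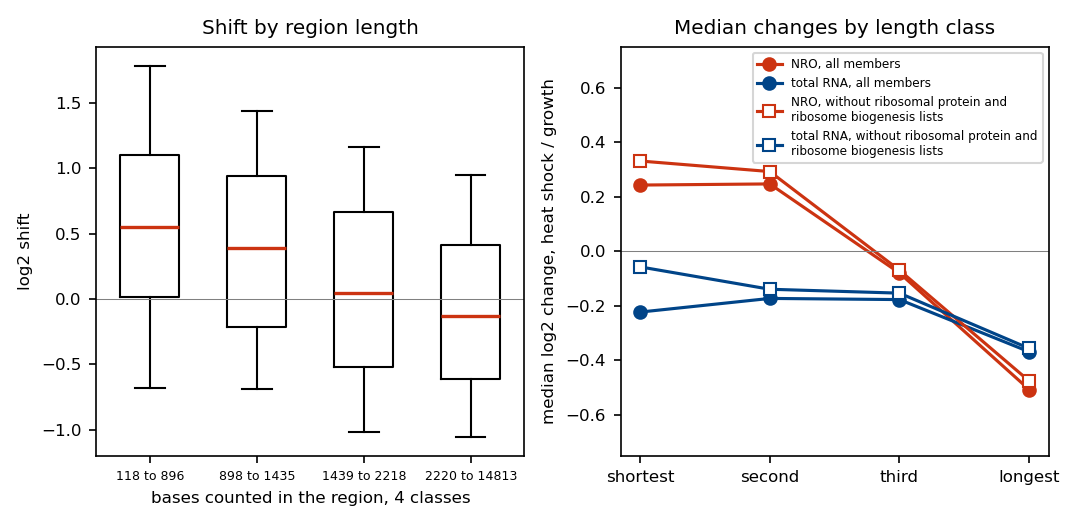
Left, boxes of the log2 shift for the 1803 members in 4 classes of the bases counted per region, with the median in red, the box from the lower to the upper quartile and whiskers at the lowest and highest decile. Right, the median log2 change of NRO and of total RNA in the same classes, for all members and without the ribosomal protein and ribosome biogenesis lists. The NRO median is 0.24 in the shortest and -0.51 in the longest class.

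Length bore on the lists unequally. When each member was set against the median of its own length class, 12.3% of all members were at least 2-fold higher and 11.9% at least 2-fold lower. Ribosomal proteins lay above their class in 49 of 65 genes, as 900 of all 1803 members did. Mitochondrial ribosomal proteins had a median of 0.18, with 13 of 21 above their class. Ribosome biogenesis genes kept a median of 0.57, with 55 of 69 above their class, and aminoacyl-tRNA synthetases one of 0.76, with 13 of 15. Drug transport kept a median of -1.28 and trehalose metabolism one of -0.94, with 10 of 12 and all 7 members below. General stress effectors had a median of -0.84, with 13 of 15 below.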

How the data were processed

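Sequencing reads were aligned by the authors to sacCer2 with Maq at a mapping quality of at least 30, without rDNA, and the replicates of each group were merged. For each transcript model free of same-strand overlap, the authors deposited the read density, a signal of coverage: the mean depth over mappable nonintronic bases from 201 bp downstream of the TSS, scaled to the bases acquired. Other deposited columns used were the summed depths, the density with introns and the numbers of bases, and 8 columns of other depths were not used. The 3′-end NRO library was not analysed here.

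From the deposited depths, the step of 1 base of depth gave 13617828 bases for NRO (HS), 23638680 for total RNA (HS), 89681184 for NRO and 33981956 for total RNA. At read lengths of 36, 36, 36 and 38 bases, between 74.7% and 81.7% of models at low depth held whole reads. Estimated reads are depth over read length. The value of 38 differs from the read length in the methods. The 894262 reads it gives for total RNA are fewer than the unique non-rRNA reads that the paper reports. Reads without molecular identifiers are not independent molecules, so intervals cover counting error only. The exact conditional interval of the ratio of ratios reached a median of 0.69 to either side on the log2 scale.

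Groups followed the labels. The 4 pooled values entered each shift, with no test. The 41 gene lists hold 653 members. RPP1, a subunit of RNase P that a symbol pattern had placed among the ribosomal proteins, was taken out after its shift of 0.76 was known, and with it the 66 genes had the same median of 1.03 and 35 past 2-fold. Members, lists and fold limit were chosen with earlier results of these data known. Genes named by rule were the 10 members with the highest lower limit and the 10 with the lowest upper limit, and in each list of at least 3 members the gene with the most reads and those with the highest and lowest shift. Some genes that this rule names are not reported here. Further members of the lists, such as HSC82, HSP82, TSL1, NTH1, NTH2, LYP1, RPP1A, RPL15A, CPR6 and GAD1, were named after their values were seen. Names and downstream sequence came from RefSeq R64, matched by systematic name for 4259 of 4280 models. Coordinates of regions are those of the files in sacCer2, and coordinates of motif sites are R64. The shift and its interval were tested on simulated data. Alternatives covered depth limits, pseudocount, scaling, mappability, introns, fold limit and counting error. Computations ran in Python 3.11.15 with scipy 1.17.1, pandas 2.3.3 and numpy 2.4.6, and plots were drawn with matplotlib 3.10.9.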

Additional observations from a re-analysis of the deposited data

How the results depend on the processing

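The counts of genes past 2-fold moved with depth. With the depth limits doubled, 1365 genes remained, 234 higher and 91 lower, and with limits times 5 there were 767, with 117 higher and 41 lower. Without a limit, 2781 genes gave 658 higher and 415 lower, and a pseudocount of 0.01 over all 4280 models gave 496 and 357. Centring on the median of all members gave 240 lower, and centring on the median of the length class, added after the data had been seen, gave 222 higher. A fold limit of 1.5 gave 631 and 333, and one of 3 gave 125 and 46. The median of all members, 0.22, was 0.24 with doubled limits, 0.25 with limits times 5, 0.20 without a limit, 0 with the pseudocount, 0.25 after rescaling to the depth in the transcript models, 0.21 with at least 90% mappable bases, 0.21 with introns included and 0.25 with 10% of the NRO depth removed as total RNA, the last also added after the data had been seen.

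Of the values of named genes under the alternatives, 978 stayed within their counting interval, 40 moved and none that had passed 2-fold changed sign. Settings of the depth limits and of mappability only choose genes, so the shift of a kept gene was unchanged by construction. Rescaling moves all genes by the same amount. Of the 40 that moved, 27 came from centring on the length class and 13 from removing 10% of the NRO depth. Of the list medians, 231 stayed within the counting interval of their pooled reads and 115 moved. No paired analysis was possible because each group holds 1 merged value, and leaving out single replicates was not run for the same reason. What depth limits is the NRO (HS) library, where the median member had 47.5 reads.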
